A study of Mus musculus with 12 samples.

Results

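The 40 genes described here encode the machinery that takes a cell from quiescence through DNA replication and mitosis. They were chosen by gene symbol as the rows of the deposited count tables that carry these names, and all 40 were listed in both tables, which together list 23391 genes and share 20093. By role they comprise 9 cyclins, Cdk1 and transcription factors, 8 genes of replication licensing and the replicative helicase, 4 genes of DNA synthesis and nucleotide supply, 8 mitotic kinases, spindle checkpoint genes and Cdc20, and 11 genes of the centromere, spindle and mitotic chromosome. Bulk RNA-seq had been done on 12 livers, each from 1 male mouse and read as 1 library, with 3 livers in each of 4 groups. All mice were C57BL/6N animals with floxed Elavl1 alleles (HuR flox/flox), so the controls carried the floxed gene too. According to the labels they were 4 to 6 months old when injected with an adeno-associated virus. The HuRHep-/- mice received AAV8-Tbg-Cre, in which a hepatocyte promoter drives Cre, and the WT controls received AAV8-Tbg-null. The other cells of the liver, including those that also divide, therefore kept an intact gene in the model as labelled. Either group was fed normal chow or, for 16 weeks, the HFCF diet, which is rich in fat (40 kcal%), cholesterol (2%) and fructose (20 kcal%). The study's methods define HuRHep-/- mice by a cross with Alb-Cre, which differs from the labels, and the labels are followed here.

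HuR is encoded by Elavl1, and its transcript goes against the labels. Normalised counts of Elavl1 were 1050, 996 and 1054 in the chow WT livers and 1454, 1332 and 1320 in the chow HuRHep-/- livers. On the HFCF diet they were 811, 821 and 917 in the WT livers and 1102, 1095 and 1164 in the HuRHep-/- livers. In both diets every liver labelled HuRHep-/- lay above every liver labelled WT (log2 fold change 0.41, limma adjusted p = 0.0219 in chow, and 0.38, adjusted p = 0.0327 on HFCF). The count covers the whole gene and does not read the floxed part on its own. The libraries labelled HuRHep-/- are named by that label throughout, and every genotype direction below depends on that label.

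Liver parenchyma is largely quiescent in the adult, and hepatocytes re-enter the cell cycle after loss of tissue or injury. Cyclin D1 with its kinases inactivates the retinoblastoma family, which frees E2F factors to switch on replication genes. Cdt1 and Cdc6 then load the Mcm2 to Mcm7 helicase on replication origins, Pcna clamps the DNA polymerases to the template, and Tk1, Tyms and Rrm2 supply nucleotides. Later in the cycle cyclin B with Cdk1, the Polo and Aurora kinases and the spindle checkpoint drive and time mitosis. Proliferation of inflammatory cells, fibroblasts and bile duct cells uses the same genes, and in bulk liver RNA more dividing cells and more transcript per cell cannot be told apart.

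The libraries held from 30071731 to 35949203 gene counts. A normalised read count is a count rescaled to the mean effective library size with TMM factors (trimmed means of log ratios between libraries). To be called a differentially expressed gene (DEG), a gene needed a limma adjusted p of at most 0.05, a fold of 1.5 or more in either direction, and no fewer than 10 counts summed over the 3 livers of each group. Most of the 40 genes were scarce. Per length, their median level was 0.251 RPKM (reads per kilobase of exon, scaled by library size) in chow WT livers, 0.293 in chow HuRHep-/- livers, 0.421 in HFCF WT livers and 0.595 in HFCF HuRHep-/- livers. In the same order 31, 31, 29 and 25 of the 40 genes were under 1 RPKM. Pcna had the highest level in chow WT livers at 13.0 RPKM, followed by Tk1 at 6.38 and Ccnd1 at 2.95. In HFCF HuRHep-/- livers Ccnd1, at 17.9 RPKM, was above Pcna, at 15.8.

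Promoters were read for sequence motifs, which the choice by name did not use. RefSeq promoter windows, from 250 bases before to 50 after the start of transcription in GRCm38.p6, were at hand for 32 of the 40 genes (not for Aurkb, Ccna2, Ccnd1, Ccne2, Foxm1, Kif20a, Mcm4 and Tpx2). E2F-type letters (TTCCCGC, else TTGGCGC, else TTCGCGC, else TTGCCGC, on either strand) occurred in 11 of the 32 genes, against 10.9% of all 27025 genes with such a window. The CHR motif, TTTGAA on either strand, occurred in 15 of 32, against 20.2% of all genes, and CCAAT on either strand in 24 of 32, against 41.1%. Among licensing and helicase genes 6 of 7 held E2F-type letters and 1 held the CHR motif. Of the centromere and spindle genes, 1 of 9 held E2F-type letters and 7 held the CHR motif, and of the mitotic kinases and checkpoint genes, 0 and 4 of 7. The other roles did not show this split, with E2F-type letters in 3 and the CHR motif in 3 of 5 cyclins and regulators, and in 1 and 0 of 4 genes of DNA synthesis. These are matches of letters and not sites shown to be bound.

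The sequences shown here run from 180 bases before to 20 after the start, 5′ to 3′ on the gene's strand, for 3 helicase genes and 3 mitotic genes that were called higher on the HFCF diet in HuRHep-/- livers. Capitals mark matches to the 3 kinds of motif, which can overlap.
Mcm5, chr8:75109329-75109528, + strand: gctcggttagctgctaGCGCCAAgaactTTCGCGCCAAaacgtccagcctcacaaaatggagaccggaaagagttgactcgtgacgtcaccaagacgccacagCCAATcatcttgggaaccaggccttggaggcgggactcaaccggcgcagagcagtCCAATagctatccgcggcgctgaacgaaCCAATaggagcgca
Mcm6, chr1:128359686-128359885, - strand: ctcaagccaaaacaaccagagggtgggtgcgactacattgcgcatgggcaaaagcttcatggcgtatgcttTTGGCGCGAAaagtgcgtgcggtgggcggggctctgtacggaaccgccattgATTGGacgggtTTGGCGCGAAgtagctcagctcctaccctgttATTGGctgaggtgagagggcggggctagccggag
Mcm2, chr6:88898761-88898960, - strand: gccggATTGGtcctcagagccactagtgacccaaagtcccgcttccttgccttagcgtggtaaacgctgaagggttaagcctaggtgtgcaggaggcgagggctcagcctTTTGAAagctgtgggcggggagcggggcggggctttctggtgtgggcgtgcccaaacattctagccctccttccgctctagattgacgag
Ccnb1, chr13:100786467-100786666, - strand: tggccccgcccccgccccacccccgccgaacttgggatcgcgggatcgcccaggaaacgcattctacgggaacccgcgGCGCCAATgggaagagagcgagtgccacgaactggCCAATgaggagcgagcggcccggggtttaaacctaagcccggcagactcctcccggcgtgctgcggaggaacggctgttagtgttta
Top2a, chr11:99024170-99024369, - strand: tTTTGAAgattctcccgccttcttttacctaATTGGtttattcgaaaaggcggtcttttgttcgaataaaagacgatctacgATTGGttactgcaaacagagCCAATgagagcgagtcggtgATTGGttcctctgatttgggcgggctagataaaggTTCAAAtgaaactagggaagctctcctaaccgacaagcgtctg
Cenpf, chr1:189688067-189688266, - strand: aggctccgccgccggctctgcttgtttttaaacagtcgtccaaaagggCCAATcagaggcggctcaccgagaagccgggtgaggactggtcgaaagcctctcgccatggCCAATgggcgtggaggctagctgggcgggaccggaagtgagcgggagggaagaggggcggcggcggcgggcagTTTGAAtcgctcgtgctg
In these windows Mcm5 had 3 and Mcm6 had 4 E2F-type matches and neither had a CHR match, whereas Top2a had 2 CHR matches and 4 CCAAT matches and no E2F-type match. Mcm2 was the exception among the helicase genes, with 1 CHR match and 0 E2F-type matches, and Ccnb1 among the mitotic ones, with 1 E2F-type match and 0 CHR matches.

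The genotype comparison on chow asked whether livers labelled HuRHep-/- differ from WT before any dietary challenge. None of the 33 members that passed the filter on low counts was a DEG there, where 2.23% of all 13526 genes tested were. That share of 302 genes rests on single livers, with 8 DEGs without HuRHep-/- replicate 2 and 79 to 110 without WT replicate 1, WT replicate 3 or HuRHep-/- replicate 1. The other 7 (Ccnb1, Foxm1, Cdc6, Aurkb, Bub1, Cenpf and Nusap1) had at most 23.2 normalised counts in any chow liver and were not tested. At an unadjusted p under 0.05, 9 members were higher and 1 lower in HuRHep-/- livers, beside 12.2% and 11.3% of all genes. Tpx2, a spindle assembly factor, had the largest log2 fold change (1.37, standard error 0.39, limma adjusted p = 0.0916), although with under 10 counts in every chow WT liver it passed the filter only through the HuRHep-/- livers. It was followed by Mki67 (1.17, standard error 0.32, adjusted p = 0.0847). The groups did not overlap in 11 members that were higher and 2 that were lower, beside 15.3% and 14.2% of all genes. Of the 33 log2 fold changes 21 were above 0, beside 51% of all genes, and their median was 0.40, against 0.0054 over all genes tested. Restricted to the 27 members with at least 10 counts in every chow liver, the median was 0.02, and it was 0.18 over the 33 without HuRHep-/- replicate 2 and 0.25 without WT replicate 3.

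On the HFCF diet the same comparison called more members and gave a larger median log2 fold change. The interaction with diet, given below, called no member. Of 39 members tested (Bub1 was too low), 4 were DEGs, all higher in HuRHep-/- livers, beside 3.66% of all 14295 genes tested and 2.2% called higher. They were Mcm5 (3.34-fold), Cenpe (3.35-fold), Cenpf (2.61-fold) and Cdt1 (1.98-fold). Cenpe and Cenpf passed the filter only through the HuRHep-/- livers, and with at least 10 counts in every HFCF liver required, Mcm5 and Cdt1 were the 2 members called. The count was 2 with RLE factors, 1 with upper-quartile factors, 2 without a filter and 11 in a fit of all 12 livers, and Cdt1 was called in each of them. With the replicate number as a block the count was 7. The 523 DEGs over all genes ranged from 28 to 848 with 1 liver left out. At an unadjusted p under 0.05, 18 members including these 4 were higher and 1, E2f8, was lower, beside 14.6% of all genes higher and 15% lower. Mcm6 (3.49-fold, limma adjusted p = 0.0501), Ccnd1 (3.19-fold, adjusted p = 0.0535) and Mcm4 (2.21-fold, adjusted p = 0.0538) lay just outside the threshold. In all, 37 of the 39 log2 fold changes were above 0, beside 49.8% of all genes, with a median of 0.91 against -0.0011 over all genes. Some members passed the filter on low counts only through the HuRHep-/- livers, and over the 29 with at least 10 counts in every HFCF liver the median was 0.58. Without WT replicate 2 the median over the 39 was 0.50. Without overlap between groups 21 members were higher and 1 lower, beside 17.6% and 19.2% of all genes. These calls rest on few livers. Leaving out WT replicate 1 or any 1 of the 3 HuRHep-/- livers left 0 of the members called, leaving out WT replicate 2 left 1, which was none of the 4, and leaving out WT replicate 3 gave 12 higher and 1 lower.

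**Figure D1:**
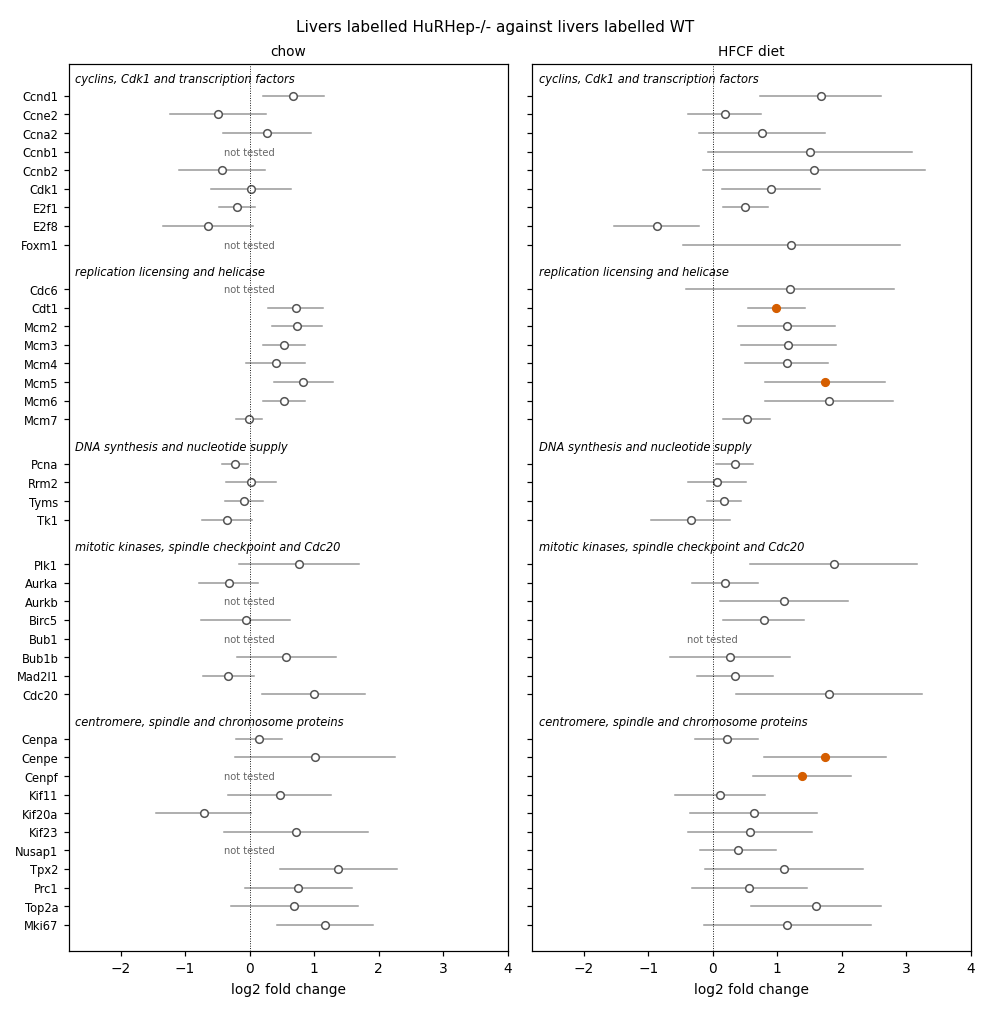
Log2 fold change of each gene in livers labelled HuRHep-/- against WT, on chow (left) and on the HFCF diet (right), grouped by role. Points are limma estimates, bars are their 95% confidence intervals, and filled points are DEGs; none of the 33 genes tested on chow is filled, and 4 of 39 are on HFCF.

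An interaction term fitted to all 12 livers tested if the genotype difference depended on diet. No member passed an adjusted p of 0.05 from limma, and neither did any of the 14535 genes tested (0%). At an unadjusted p under 0.05, 7 of the 39 members (E2f1, Pcna, Mcm7, Mcm6, Kif20a, Ccnb2 and Mad2l1) and 14.3% of all genes (7.01% with a positive interaction) were left, and in all 7 the log2 fold change by genotype was higher on HFCF than on chow. The interaction was above 0 in 31 of 39 members, beside 50.7% of all genes, with a median of 0.54 on the log2 scale against 0.0048 over all genes, and of 0.28 without HFCF WT replicate 2. The larger number of calls on HFCF than on chow is therefore not shown to be a difference between the diets.

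The diet comparisons set HFCF against chow within each label. Each diet is also 1 count table, so diet and any difference between the tables cannot be told apart, and these comparisons share libraries with those of genotype. In livers labelled WT, 7 of 39 members were DEGs, all higher on HFCF (Mcm2, Mcm3, Mcm4, Mcm5, Aurkb, Nusap1 and Tpx2), beside 9.41% of all 14535 genes tested, with 6.17% higher and 3.24% lower. Aurkb, Nusap1 and Tpx2 had under 10 counts in every chow WT liver and passed the filter through the other groups, and with voom weights Mcm2 and Nusap1 were the 2 members called. In livers labelled HuRHep-/-, 21 of 39 were DEGs, 20 higher and 1, E2f8, lower, beside 19.1% of all genes, with 14.2% higher and 4.9% lower. Of the 26 members with at least 10 counts in every liver, 4 were called in WT (the Mcm genes) and 16 in HuRHep-/-. The 7 members called in WT were among the 20 called in HuRHep-/-. The median log2 fold change of members was 0.47 in WT and 1.17 in HuRHep-/-, against 0.011 and 0.0027 over all genes. In WT it was 0.83 without HFCF WT replicate 2 and 0.27 without HFCF WT replicate 3. Without overlap between groups, 9 members were higher and 0 lower in WT, and 31 were higher and 1 lower in HuRHep-/-, where 17.8% and 27.5% of all genes were higher and 19.8% and 27.1% lower. In HuRHep-/- livers the count of members called was 10 without HFCF replicate 1, 12 without chow replicate 3 and 13 without chow replicate 1, beside 2178, 2153 and 2507 DEGs over all genes, where the fit of all livers had 2772.

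**Figure D2:**
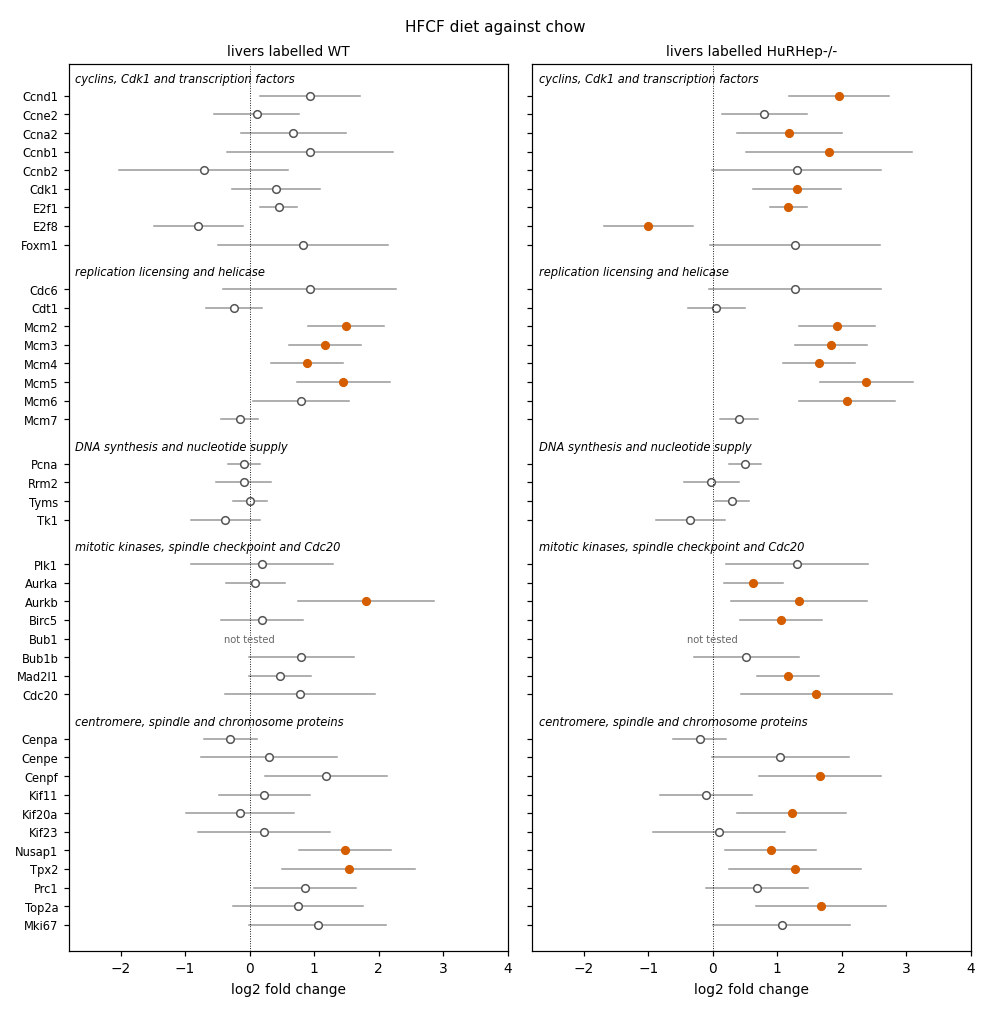
Log2 fold change of each gene on the HFCF diet against chow, in livers labelled WT (left) and HuRHep-/- (right), grouped by role. Points are limma estimates over all 12 livers, bars are their 95% confidence intervals, and filled points are DEGs, 7 of 39 genes on the left and 21 on the right.

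Single livers differed widely within the HFCF WT group. Relative to the mean of chow WT, the median log2 ratio over 39 members was 0.64, -0.15 and 1.01 in HFCF WT replicates 1, 2 and 3, so replicate 2 lay at the chow level while replicate 3 came close to the HFCF HuRHep-/- livers, at 1.67, 1.2 and 1.3. In the chow HuRHep-/- livers it was 0.48, 0.56 and 0.18. HFCF WT replicate 2 was the lowest of its group in 29 of 39 members and replicate 3 the highest in 32. HFCF HuRHep-/- replicate 1 was the highest of all 12 livers in 31 of 39. Without HFCF WT replicate 2 the diet comparison in WT called 17 members higher and 1 lower, beside 1786 DEGs over all genes. It called 4 without HFCF WT replicate 3, chow WT replicate 1 or chow WT replicate 3, beside 873, 850 and 994 DEGs, where the fit of all livers had 1368.

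**Figure D3:**
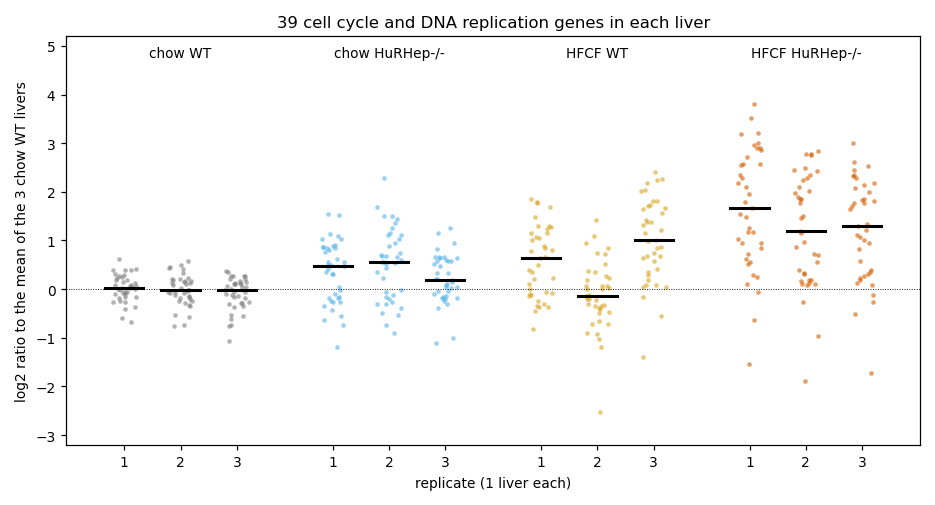
Log2 ratio of each of the 39 genes to its mean in the 3 chow WT livers, by liver. Each point is a gene and each black line the median of a liver; the medians of the 3 HFCF WT livers run from -0.15 to 1.01 and those of the 3 HFCF HuRHep-/- livers from 1.2 to 1.67.

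Replication licensing and helicase genes were the role with the largest median log2 fold change in 3 of the 4 comparisons, with 0.53 and 1.16 for genotype on chow (7 tested) and HFCF (8 tested), and 0.91 and 1.74 for diet in WT and HuRHep-/-. Only the genotype comparison on chow had a higher median in another role, 0.72 over 9 centromere and spindle genes. Mcm5 (ENSMUSG00000005410, GRCm38, chr8:75109569-75128439, + strand), a subunit of the helicase, had 35.8, 47.8 and 38.9 normalised counts in the chow WT livers, 73.9, 79.0 and 64.9 in the chow HuRHep-/- livers, 96.9, 73.7 and 194 in the HFCF WT livers, and 577, 283 and 332 in the HFCF HuRHep-/- livers. All 3 HFCF HuRHep-/- livers lay above the other 9, and the 2 chow groups did not overlap. The log2 fold change of Mcm5 by genotype was 0.83 (standard error 0.20, limma adjusted p = 0.0575) on chow and 1.74 (standard error 0.40, adjusted p = 0.0468) on HFCF. By diet it was 1.45 (standard error 0.33, adjusted p = 0.00962) in WT and 2.38 (standard error 0.33, adjusted p = 0.000481) in HuRHep-/-. Each of the 12 fits that left out 1 liver called Mcm5 in either diet comparison. The call by genotype on HFCF was kept in 1 of 6 such fits.

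Mcm6 (ENSMUSG00000026355, chr1:128331590-128359664, - strand), another subunit, had 76.1, 85.3 and 80.0 normalised counts in chow WT, 112, 109 and 127 in chow HuRHep-/-, 127, 84.1 and 254 in HFCF WT, and 734, 349 and 465 in HFCF HuRHep-/-. The genotype groups were apart on both diets, while HFCF WT replicate 2 stayed within the range of chow WT. Mcm6 was called for diet in HuRHep-/- (4.23-fold, limma adjusted p = 0.00105) and had an adjusted p of 0.112 in WT. Mcm2 had 53.7, 62.6 and 51.1 normalised counts in chow WT, 101, 93.7 and 83.7 in chow HuRHep-/-, 157, 108 and 229 in HFCF WT, and 518, 301 and 281 in HFCF HuRHep-/-. The 4 groups of Mcm2 did not overlap at all, and it was called for diet in both WT (2.81-fold, adjusted p = 0.00333) and HuRHep-/- (3.80-fold, adjusted p = 0.000501). Mcm3 had 67.2, 67.1 and 70.0 normalised counts in chow WT, 101, 100 and 94.2 in chow HuRHep-/-, 143, 112 and 228 in HFCF WT, and 514, 276 and 304 in HFCF HuRHep-/-. Its groups were apart in the same order, and it was higher on HFCF by 2.25-fold in WT (adjusted p = 0.00789) and 3.56-fold in HuRHep-/- (adjusted p = 0.000496).

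Mcm4 had 80.6, 86.4 and 61.1 normalised counts in chow WT, 101, 116 and 83.7 in chow HuRHep-/-, 132, 109 and 190 in HFCF WT, and 452, 259 and 262 in HFCF HuRHep-/-. It was called for diet in WT (1.85-fold, limma adjusted p = 0.0269) and HuRHep-/- (3.15-fold, adjusted p = 0.000779), and 4 of the 12 fits without 1 liver lost the call in WT. Mcm7, the remaining subunit and the gene of this role with the most counts, was called in no comparison. It had 439, 391 and 414 normalised counts in chow WT, 425, 381 and 425 in chow HuRHep-/-, 337, 417 and 368 in HFCF WT, and 683, 468 and 501 in HFCF HuRHep-/-. Only the HFCF HuRHep-/- livers stood above the others, by 1.44-fold over HFCF WT (adjusted p = 0.0831) and 1.32-fold over chow HuRHep-/- (adjusted p = 0.0308, under the 1.5-fold limit). Cut into stretches of 31 bases, 37.6% of the Mcm7 exons match elsewhere in the annotation, with the pseudogene Gm5487 sharing more than any other gene, so its counts are uncertain.

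Cdt1, the licensing factor, was called by genotype on HFCF and by diet in neither genotype. It had 201, 123 and 137 normalised counts in chow WT, 261, 246 and 229 in chow HuRHep-/-, 112, 115 and 158 in HFCF WT, and 316, 228 and 229 in HFCF HuRHep-/-. The genotype groups did not overlap on either diet. The call by genotype on HFCF was kept in 1 of 6 fits without 1 liver. The log2 fold change by genotype was 0.71 (standard error 0.19, limma adjusted p = 0.0756) on chow and 0.99 (standard error 0.19, adjusted p = 0.0335) on HFCF, and by diet it was -0.24 in WT and 0.05 in HuRHep-/- (adjusted p = 0.403 and 0.851). Cdc6, its partner in loading the helicase, had at most 36.5 normalised counts in any liver and was called in no comparison.

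Cyclins and their regulators were led by Ccnd1, the G1 cyclin. Ccnd1 (ENSMUSG00000070348, chr7:144929931-144939925, - strand) had 355, 648 and 416 normalised counts in chow WT, 668, 771 and 751 in chow HuRHep-/-, 825, 491 and 1670 in HFCF WT, and 3532, 2670 and 2402 in HFCF HuRHep-/-. The HFCF HuRHep-/- livers were above all others, while HFCF WT replicate 2 lay among the chow WT livers. In HuRHep-/- livers Ccnd1 rose 3.88-fold on HFCF (limma adjusted p = 0.00175), and the call held in all 12 fits without 1 liver. In WT the difference was 1.92-fold with an adjusted p of 0.0736, and by genotype on chow it was 1.60-fold with an adjusted p of 0.106. LTO1 overlaps 23.4% of the Ccnd1 exons on the other strand, and the libraries were stranded.

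Cdk1, the mitotic kinase, had 50.4, 28.4 and 48.9 normalised counts in chow WT, 37.5, 42.1 and 46.0 in chow HuRHep-/-, 55.7, 34.3 and 86.4 in HFCF WT, and 120, 95.2 and 98.9 in HFCF HuRHep-/-. It was called for diet in HuRHep-/- (2.48-fold, limma adjusted p = 0.0071), and by genotype on chow its log2 fold change was 0.02 (95% confidence interval -0.60 to 0.64). Ccnb1, the B-type cyclin that activates Cdk1, had 7.84, 9.10 and 4.45 normalised counts in chow WT, 13.8, 11.6 and 8.37 in chow HuRHep-/-, 24.2, 4.15 and 23.8 in HFCF WT, and 44.1, 53.8 and 26.6 in HFCF HuRHep-/-. On HFCF it rose 3.50-fold in HuRHep-/- (adjusted p = 0.0306), with the call lost in 4 of 12 fits without 1 liver, and 46.9% of its sequence is shared with other genes, most often the pseudogene Ccnb1-ps. Ccna2, the cyclin of S phase and G2, was called in the same comparison (2.28-fold, adjusted p = 0.0259, kept in 8 of 12 fits without 1 liver), but Ccnb2 (2.47-fold, adjusted p = 0.105) and Ccne2 (1.74-fold, adjusted p = 0.0531) were not. HFCF WT replicate 2 had 5.19 normalised counts of Ccnb2, where the other 11 livers had 19.0 or more.

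E2f1, an activating E2F, had 143, 141 and 133 normalised counts in chow WT, 122, 116 and 125 in chow HuRHep-/-, 177, 180 and 217 in HFCF WT, and 315, 229 and 281 in HFCF HuRHep-/-. The 4 groups did not overlap, with HuRHep-/- below WT on chow and above it on HFCF. In HuRHep-/- livers E2f1 rose 2.25-fold on HFCF (limma adjusted p = 0.000172), a call kept in all 12 fits without 1 liver. In WT the difference passed the adjusted p (0.0271) but not the fold limit (1.37-fold). E2f8, an atypical E2F that represses transcription, was the only member called lower. It had 232, 491 and 325 normalised counts in chow WT, 296, 186 and 173 in chow HuRHep-/-, 294, 183 and 132 in HFCF WT, and 119, 94.3 and 106 in HFCF HuRHep-/-. The 3 HFCF HuRHep-/- livers lay below the other 9, and the remaining groups overlapped. By diet in HuRHep-/- it fell by 1.00 on the log2 scale (standard error 0.32, adjusted p = 0.0278), a call kept in 8 of 12 fits without 1 liver. By genotype the log2 fold change of E2f8 was -0.65 on chow and -0.87 on HFCF (adjusted p = 0.238 and 0.0992).

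**Figure D4:**
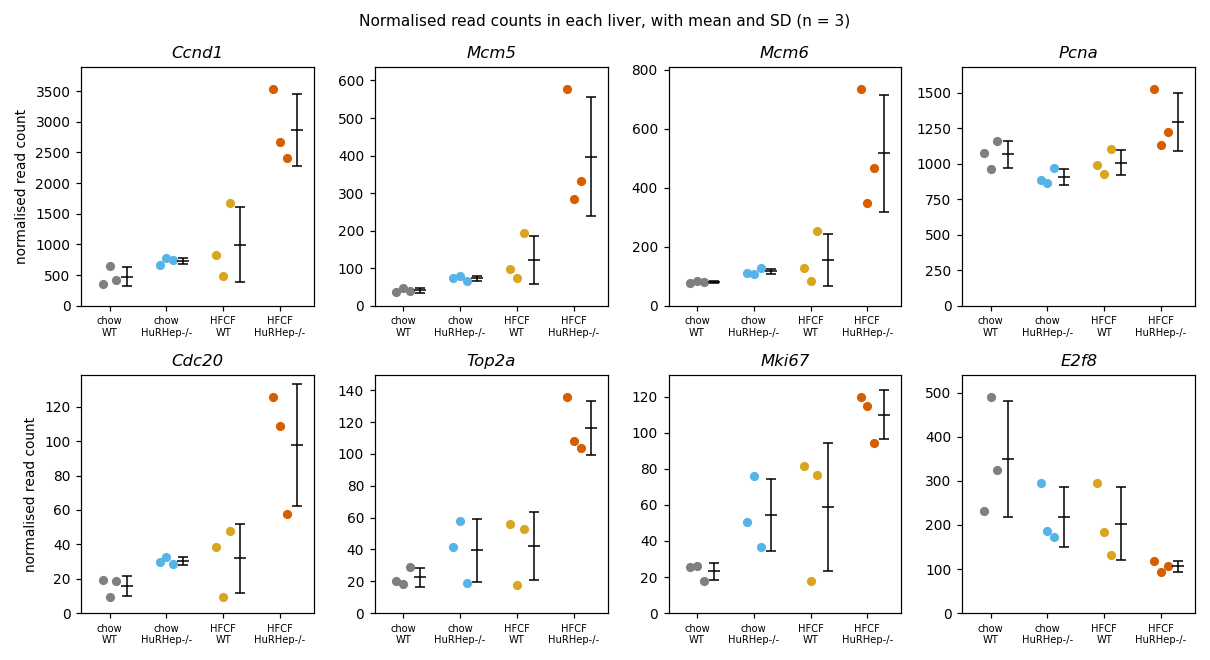
Normalised read counts of 8 genes in each of the 12 livers, by group, with the mean and SD of each group (n = 3) as black bars. Ccnd1, Mcm5, Mcm6, Cdc20, Top2a and Mki67 are highest in the 3 HFCF HuRHep-/- livers, Pcna varies less, from 863 to 1524, and E2f8 is lowest in the HFCF HuRHep-/- livers.

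Of the 4 genes of DNA synthesis and nucleotide supply, 0 were called in any comparison. Of all genes, 2.23% and 3.66% were called by genotype on chow and HFCF, and 9.41% and 19.1% by diet in WT and HuRHep-/-. A list of 4 is too short to set 0 calls apart from these shares. The median log2 fold changes of the 4 genes lay between -0.15 and 0.14 in the 4 comparisons. Pcna (ENSMUSG00000027342, chr2:132249162-132253314, - strand), the sliding clamp and a common tissue marker of proliferation, had 1075, 963 and 1156 normalised counts in chow WT, 887, 863 and 972 in chow HuRHep-/-, 988, 926 and 1101 in HFCF WT, and 1524, 1130 and 1221 in HFCF HuRHep-/-. The HFCF HuRHep-/- livers were above those of the other HFCF group and of the other HuRHep-/- group, by 1.26-fold (limma adjusted p = 0.123) and 1.41-fold (adjusted p = 0.00556, under the 1.5-fold limit). Of its sequence 38.0% is shared with other genes, most often Pcna-ps2. Tk1, thymidine kinase, had lower means in each group than in chow WT, with 1128 ± 122 normalised counts in chow WT, 895 ± 207 in chow HuRHep-/-, 910 ± 364 in HFCF WT and 697 ± 110 in HFCF HuRHep-/- (SD, n = 3 each), and its 4 log2 fold changes, from -0.38 to -0.34, had adjusted p-values of 0.251 to 0.414. Rrm2, a subunit of ribonucleotide reductase, had a log2 fold change between -0.09 and 0.06 in the 4 comparisons, and the 95% confidence interval by diet in HuRHep-/- ran from -0.44 to 0.40. For Tyms, thymidylate synthase, that interval ran from 0.03 to 0.56.

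Among the mitotic kinases and checkpoint genes, Mad2l1 and Cdc20 act on the same step, since the checkpoint protein Mad2 holds Cdc20 until all chromosomes are attached. Mad2l1 had 81.7, 80.7 and 101 normalised counts in chow WT, 69.0, 62.1 and 77.4 in chow HuRHep-/-, 137, 81.0 and 161 in HFCF WT, and 170, 144 and 157 in HFCF HuRHep-/-. Its chow groups were apart with HuRHep-/- the lower (log2 fold change -0.33, limma adjusted p = 0.293), and on HFCF it rose 2.25-fold in HuRHep-/- (adjusted p = 0.00223), a call kept in all 12 fits without 1 liver. Cdc20 had 19.0, 9.10 and 18.9 normalised counts in chow WT, 29.6, 32.6 and 28.3 in chow HuRHep-/-, 38.6, 9.34 and 47.5 in HFCF WT, and 126, 109 and 57.7 in HFCF HuRHep-/-. Genotype groups were apart on both diets, at 2.00-fold on chow (adjusted p = 0.141) and 3.49-fold on HFCF (adjusted p = 0.110), and the call was for diet in HuRHep-/- (3.05-fold, adjusted p = 0.0328), lost in 5 of 12 fits without 1 liver. Of the Cdc20 sequence 27.4% occurs in other genes, with the pseudogene Gm7856 sharing more than any other.

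Aurkb, the kinase that corrects spindle attachments, had 5.60, 2.27 and 4.45 normalised counts in chow WT, 8.87, 22.1 and 10.5 in chow HuRHep-/-, 16.2, 9.34 and 21.6 in HFCF WT, and 52.6, 24.7 and 27.5 in HFCF HuRHep-/-. It rose with diet in WT (3.51-fold, limma adjusted p = 0.0194) and HuRHep-/- (2.52-fold, adjusted p = 0.0458), calls that 5 and 7 of the 12 fits without 1 liver lost. Aurka (1.55-fold, adjusted p = 0.0316) and Birc5, a partner of Aurkb (2.08-fold, adjusted p = 0.0148), were also called for diet in HuRHep-/-, in 8 and 9 of 12 fits without 1 liver. Plk1 was 3.66-fold higher by genotype on HFCF with an adjusted p of 0.0821. Bub1 had between 0.986 and 7.63 normalised counts in all 12 livers, too few for a test, and Bub1b was called in no comparison.

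Top2a untangles replicated DNA and Mki67 coats mitotic chromosomes. Top2a (ENSMUSG00000020914, chr11:98992943-99024189, - strand) had 20.1, 18.2 and 28.9 normalised counts in chow WT, 41.4, 57.9 and 18.8 in chow HuRHep-/-, 55.7, 17.6 and 52.9 in HFCF WT, and 136, 108 and 104 in HFCF HuRHep-/-. The 3 HFCF HuRHep-/- livers lay above the other 9, the remaining groups overlapped, and Top2a was called for diet in HuRHep-/- (3.20-fold, limma adjusted p = 0.0144), a call lost without chow replicate 3 or HFCF replicate 1. Mki67 (ENSMUSG00000031004, chr7:135689784-135716361, - strand) had 25.7, 26.2 and 17.8 normalised counts in chow WT, 50.3, 75.8 and 36.6 in chow HuRHep-/-, 81.7, 17.6 and 76.7 in HFCF WT, and 120, 115 and 94.3 in HFCF HuRHep-/-. Genotype groups of Mki67 were apart on both diets, at 2.25-fold on chow and 2.23-fold on HFCF, but its adjusted p-values in the 4 comparisons, 0.0847 to 0.209, did not pass.

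Of the 11 centromere and spindle genes tested, 2 were called by genotype on HFCF, both higher, beside 3.66% of all genes called and 2.2% called higher. Both passed the filter there only through the HuRHep-/- livers. Each of these 2 calls was kept in 1 of 6 fits without 1 liver. Cenpe, a kinetochore motor, had 7.84, 11.4 and 3.33 normalised counts in chow WT, 10.8, 22.1 and 11.5 in chow HuRHep-/-, 8.08, 5.19 and 14.0 in HFCF WT, and 33.9, 30.9 and 24.7 in HFCF HuRHep-/-, and it was called by genotype on HFCF only (limma adjusted p = 0.0488). Cenpf, another kinetochore protein, had 5.60, 3.41 and 3.33 normalised counts in chow WT, 12.8, 9.48 and 4.19 in chow HuRHep-/-, 10.8, 7.27 and 11.9 in HFCF WT, and 33.1, 22.9 and 24.7 in HFCF HuRHep-/-. It was called by genotype on HFCF (adjusted p = 0.0496) and by diet in HuRHep-/- (3.17-fold, adjusted p = 0.0111). Both genes stood above all 9 other livers in HFCF HuRHep-/-.

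Nusap1 and Tpx2, which organise spindle microtubules, rose on HFCF in both genotypes, from levels in chow WT that would not pass the filter on their own. Nusap1 had 7.84, 6.82 and 10 normalised counts in chow WT, 18.7, 23.2 and 10.5 in chow HuRHep-/-, 18.8, 22.8 and 30.3 in HFCF WT, and 33.1, 30.9 and 30.2 in HFCF HuRHep-/-. Its rise was 2.79-fold in WT (limma adjusted p = 0.008) and 1.86-fold in HuRHep-/- (adjusted p = 0.0458), the latter kept in 3 of 12 fits without 1 liver. Tpx2 had 6.72, 9.10 and 4.45 normalised counts in chow WT, 20.7, 16.8 and 15.7 in chow HuRHep-/-, 24.2, 8.31 and 37.8 in HFCF WT, and 47.5, 49.4 and 34.8 in HFCF HuRHep-/-. HFCF WT replicate 2 fell back among the chow WT livers in Tpx2, which was called in WT (2.90-fold, adjusted p = 0.0343, kept in 8 of 12 fits without 1 liver) and in HuRHep-/- (2.42-fold, adjusted p = 0.0494, kept in 2 of 12). Kif20a, a motor of cytokinesis, was called for diet in HuRHep-/- (2.33-fold, adjusted p = 0.0265, kept in 9 of 12 fits without 1 liver), and Cdc23 overlaps 29.3% of its exons on the other strand.

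Cenpa, the centromeric histone and the gene of this role with the most counts, was called in no comparison. It had 170, 141 and 135 normalised counts in chow WT, 146, 190 and 157 in chow HuRHep-/-, 117, 94.5 and 158 in HFCF WT, and 142, 160 and 124 in HFCF HuRHep-/-. The groups overlapped in every comparison, and the 95% confidence interval of the log2 fold change by diet in HuRHep-/- ran from -0.62 to 0.21. Kif11 and Kif23, also spindle motors, and Prc1 were called in no comparison either, with log2 fold changes by diet in HuRHep-/- of -0.11, 0.10 and 0.69.

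Other genes of the pathway were read from lists of further cell cycle genes. By genotype on chow Prim1, the small subunit of DNA primase, was the only DEG among 14 other G1 cyclins, Cdks and G1/S regulators, 10 Cdk inhibitors and pocket proteins, 23 other replication genes and 24 other G2/M and mitosis genes tested, beside 2.23% of all genes. Prim1 had 73.9, 60.3 and 58.9 normalised counts in chow WT, 156, 131 and 135 in chow HuRHep-/-, 74.5, 60.2 and 106 in HFCF WT, and 217, 154 and 195 in HFCF HuRHep-/-. It followed the genotype label on both diets (log2 fold change 1.13, limma adjusted p = 0.0145 on chow and 1.24, adjusted p = 0.0328 on HFCF). On HFCF, where 2.2% of all genes were called higher, the other genes called by genotype were Rbl1, a pocket protein (1.03), Chaf1b, a histone chaperone of the replication fork (1.00), Ccnd2 (0.75) and Stmn1 (0.75). With Prim1 they were 2 of 24 other replication genes, 1 of 35 other G2/M and mitosis genes, 1 of 14 other G1 cyclins, Cdks and G1/S regulators, and 1 of 10 Cdk inhibitors and pocket proteins.

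By diet in HuRHep-/-, 11 of 24 other replication genes and 18 of 36 other G2/M and mitosis genes were DEGs, all higher, beside 14.2% of all genes called higher. Uhrf1, which maintains DNA methylation behind the fork, led with a log2 fold change of 2.63, followed by Ckap2 (2.54), Pbk (2.16), Ncapg (2.12) and Cdkn3 (1.96). Pbk, Ncapg and Cdkn3 were too low to be tested within chow. Of the 36 G2/M genes 24 were tested there, and these held 11 of the 18 calls. Of 15 other G1 cyclins, Cdks and G1/S regulators, 1 rose (Ccnd2) and 1 fell (E2f5). In WT 0 of 24 replication genes rose and 1 fell (Mcm10), and 4 of 36 G2/M genes rose (Kif4, Kif22, Incenp and Cdc25b), beside 6.17% of all genes called higher and 3.24% lower. Cdkn1a, which encodes the Cdk inhibitor p21, had the largest rise by diet of the cell cycle genes tested, in either genotype. It had 40.3, 40.9 and 41.1 normalised counts in chow WT, 74.9, 39.0 and 31.4 in chow HuRHep-/-, 400, 211 and 940 in HFCF WT, and 805, 907 and 1292 in HFCF HuRHep-/-. All 6 HFCF livers were above all 6 chow livers, with log2 fold changes of 3.38 in WT (limma adjusted p = 0.000806) and 4.43 in HuRHep-/- (adjusted p = 0.000107). Rbl1 also rose in WT (0.95) and HuRHep-/- (1.75), and in HuRHep-/- Cdkn1c rose (0.72) and Rbl2 fell by 0.60 on the log2 scale. Of the 10 Cdk inhibitors and pocket proteins tested 2 were thus higher in WT, and 3 higher and 1 lower in HuRHep-/-, where 4.9% of all genes were called lower, and the medians of the list were -0.06 and 0.01.

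Markers of other liver cell types are given beside these genes. Of all genes, 1.28% and 2.2% were called higher by genotype on chow and HFCF, and 6.17% and 14.2% by diet in WT and HuRHep-/-, and the counts of markers are to be read against these shares. The summed normalised counts of 13 Kupffer cell and macrophage markers ran from 6825 to 8443 in chow WT, 9295 to 13014 in chow HuRHep-/-, 10323 to 18442 in HFCF WT and 18059 to 24401 in HFCF HuRHep-/-. All 13 had log2 fold changes above 0 by genotype on either diet, with 0 DEGs on chow and 1 on HFCF, and 7 and 9 of 13 rose by diet in WT and HuRHep-/-. By diet the list did not move as one. In WT 3 of the 13 log2 fold changes were below 0 (lowest -0.958), and in HuRHep-/- 2 were (lowest -0.547). Cholangiocyte markers summed to 1257 to 2813 in chow WT, 1739 to 2740 in chow HuRHep-/-, 1406 to 3087 in HFCF WT and 4702 to 8494 in HFCF HuRHep-/-, where 3 of 6 rose by genotype and 6 of 6 by diet. Of these 6, 0 were called by genotype on chow and 0 by diet in WT. Stellate cell and fibroblast markers summed to 5843 to 6793, 4656 to 7223, 5922 to 14067 and 13887 to 17724 in the same order of groups. Of these 9 genes 1 rose by genotype on HFCF, and 1 and 9 rose by diet in WT and HuRHep-/-.

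HFCF WT replicate 2, the liver at the chow level in the cell cycle genes, was also the lowest of its group in the median of the macrophage (0.35), stellate (-0.16) and cholangiocyte (-0.29) markers. T and NK cell markers summed to 157 to 159, 115 to 204, 185 to 228 and 254 to 320 in the same order, with 0 DEGs by genotype and 0 and 5 of 11 by diet. Hepatocyte markers, the list with by far the highest sums, ran from 3513819 to 4280435 in chow WT, 2776598 to 3152516 in chow HuRHep-/-, 2482199 to 2859599 in HFCF WT and 2179084 to 2382398 in HFCF HuRHep-/-. Of these 8 genes 0 and 1 were lower by genotype on chow and HFCF, and 2 and 3 by diet in WT and HuRHep-/-, beside 0.954%, 1.46%, 3.24% and 4.9% of all genes lower. B and plasma cell, neutrophil, erythroid and sinusoidal endothelial markers had at most 2 DEGs in any comparison. Of all markers listed, only Camp was at 0, in the WT groups. The part of these cell types in the differences of the cell cycle genes was not tested.

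**Figure D5:**
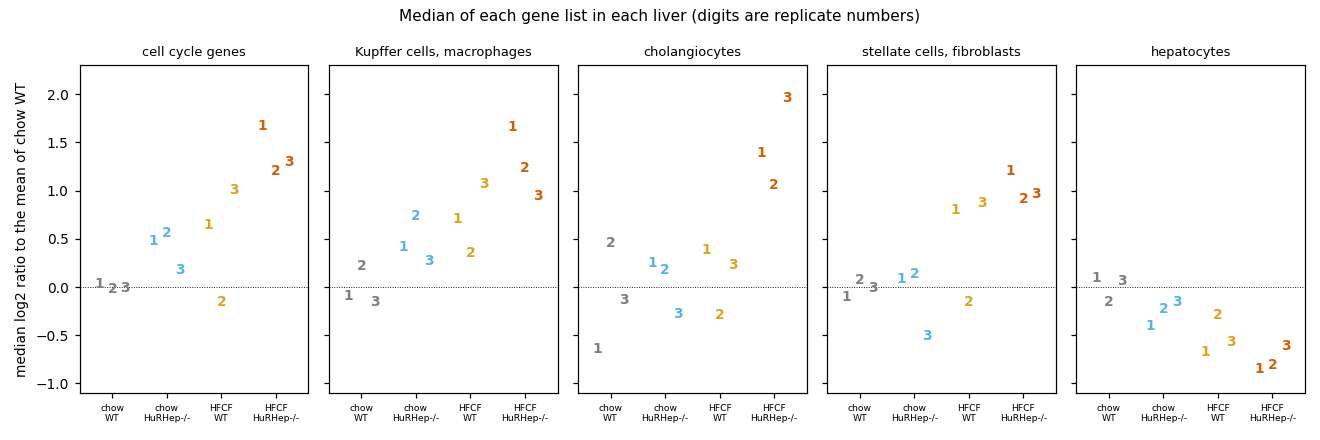
Median log2 ratio to the mean of chow WT over the 39 cell cycle genes and over the markers of 4 liver cell types, by liver and group. Digits are replicate numbers. The HFCF HuRHep-/- livers are highest in the cell cycle genes (1.2 to 1.67) and cholangiocyte markers (1.06 to 1.96). They are also highest in the stellate cell and fibroblast markers (0.91 to 1.2). HFCF WT replicate 2 is the lowest of its group in all but the hepatocyte panel.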

How the data were processed

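Raw read counts per gene, with 1 column per liver, were deposited by the authors in 2 tables, chow and HFCF, written as text with commas inside the larger numbers. Per the labels, libraries were stranded and the RNA had integrity numbers above 6.0. According to the study's methods, reads of the chow livers were aligned to GRCm38.p6 on the reverse strand with CLC Genomics Workbench, and the submitters' processing notes name the same build for all libraries. The aligner of the HFCF livers is not given in the sources used here. Counts were parsed to numbers, and log2 counts per library size (log2 CPM) were formed with TMM factors (trims of 0.3 and 0.05) and a pseudocount of 0.5. Genes with the equivalent of at least 10 counts in 3 libraries and at least 15 in all were tested with limma 3.58.1 (trended variance, Benjamini-Hochberg adjustment over all genes tested) in R 4.3.3. No negative binomial count model was fitted. Genotype was fitted within each table, and diet and the interaction over all 12 livers. The labels do not say whether replicates shared a litter, so p-values measure the spread between these livers. For single genes, 3 livers against 3 cannot give an exact permutation p under 0.1.

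The 40 members and all gene lists were chosen with earlier results of these data known. Values in every liver were given for Mki67, Top2a, Ccnd1 and Pcna, for at most 12 members called per comparison by size of log2 fold change, and for the member with the most counts in each role. Further pathway genes were named where they were among the 6 largest calls of a comparison or were Cdk inhibitors. Mcm10, Ccnd2 and E2f5 in the diet comparisons, and the values by liver of E2f1, E2f8 and Ccnb2, were chosen after their values were seen. Gene positions came from GENCODE vM21 and promoters from RefSeq. Only the fit was tested on simulated counts. These had a single spread for all genes and no outlying livers, unlike the HFCF WT group.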

Additional observations from a re-analysis of the deposited data

Results flagged for a closer look

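E2f1 was the member whose genotype difference had opposite directions on the 2 diets in every liver. On chow all 3 livers labelled HuRHep-/- lay below all 3 WT livers (log2 fold change -0.20), and on HFCF all 3 lay above (0.50). The difference between the diets was 0.72 on the log2 scale (standard error 0.183, unadjusted p = 0.00206), and it did not pass the adjustment over all genes (limma adjusted p = 0.158). Single outlying livers were not tested for within groups of 3.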

How the results depend on the processing

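Of the alternatives tried, none reversed a called member. With a minimum of 10 counts in every library the median log2 fold change of members by genotype was 0.0239 on chow and 0.582 on HFCF, and 4 members were called for diet in WT, against 2 with voom weights. By genotype on HFCF 4 members were called with TMM factors, 2 with RLE factors, 1 with upper-quartile factors, 2 without a filter, 2 with at least 10 counts in every library and 11 in a fit of all 12 livers. By adjusted p alone the DEGs over all genes numbered 570 and 978 for genotype on chow and HFCF, and 3514 and 5650 for diet in WT and HuRHep-/-. Interaction called 1 gene of all without a filter and 1 with voom weights, and 0 members in either. With the replicate number as a block, 7 members were called by genotype on HFCF. Over the 4 comparisons, same-numbered livers had correlations of -0.136 to 0.19. By genotype on HFCF they were 0.0884, 0.19 and 0.0861 for replicates 1, 2 and 3. Livers of unlike number there had at most 0.0171, -0.1 and -0.00432, in the same order. A pairing of the livers by number is not shown.

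Leaving out 1 liver at a time, members called ranged from 0 to 1 for genotype on chow, 0 to 13 on HFCF, 4 to 18 for diet in WT and 10 to 24 in HuRHep-/-, and stayed at 0 for the interaction. Medians of members ranged from 0.18 to 0.492, 0.495 to 1.15, 0.27 to 0.832, 1.0 to 1.24 and 0.275 to 0.789 in the same order. DEGs over all genes ranged from 8 to 320, 28 to 848, 850 to 1786, 2153 to 2862 and 0 to 41. The 8 chow DEGs were left without HuRHep-/- replicate 2, and the 41 interaction genes arose without HFCF WT replicate 3. The cause was not tested. Bub1, with at most 7.63 normalised counts, was too scarce at this depth to be tested.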
